A study of Mus musculus with 16 samples.

Results

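Marker genes of T cells, of Langerhans and other myeloid cells, and of leukocytes in general were followed in sorted mouse skin epithelium, 10 in all: Cd3d, Cd3e, Cd3g, Cd207, Lyz2, Tyrobp, Fcer1g, Ptprc, Cd52 and Laptm5. They were chosen by name, as the probes that the array design assigns to these symbols, and the brighter probe on average was used where a gene has more than 1. All 10 passed the filter for testing, a probe well above background on 2 or more arrays, which left 31584 genes for testing out of 34607 with a probe. Laptm5 has 2 probes and the other members have 1 each.

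The 16 one-colour arrays held 1 sample each from 16 groups of mice, so no group has a replicate. The sort for hair follicle stem cells (HFSC) took cells with high CD34, high ITGA6 and no Sca1, and the labels divide them into aHFSC and tHFSC without spelling out either abbreviation. Interfollicular epidermal cells (IFE), the keratinocytes between the follicles, were taken with high ITGA6 and high Sca1. Both HFSC sorts came from aged hCOL17A1 mice, which carry a human COL17A1 transgene, and aged WT (C57BL/6) mice of 25 to 26 months. They also came from 12-week-old hCOL17A1 mice, Col17a1 cKO mice (Col17a1 flox/flox, K15crePR), aPKC cKO mice (aPKCλ flox/flox, K15crePR) and young control WT mice. IFE came from aged hCOL17A1, aged WT, young hCOL17A1 and young WT mice, at the same ages. Both knockout lines and the young control mice received 2.5 mg of topical RU486 for 5 days at 8 weeks of age. The labels record no such treatment for the hCOL17A1 or aged mice, so young hCOL17A1 and young control HFSC differ in this treatment as well. Plucking 3 days before is stated for the aHFSC of the Col17a1 cKO and young control mice only. Recorded plucking thus also differs where aHFSC of aPKC cKO, young hCOL17A1 or aged WT mice are set against young control aHFSC. The K15 promoter drives the Cre in both knockouts, and the promoter of the transgene, the number of mice per sample and any pooling are not given in the labels.

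Mouse epidermis holds resident leukocytes among its keratinocytes. Langerhans cells, its antigen-presenting cells, carry langerin, and dendritic epidermal T cells carry a T cell receptor whose surface assembly needs the CD3 chains. CD3 chains and the adapters DAP12 and FcRγ signal through the same kind of tyrosine-based motif in their cytoplasmic tails, in which a tyrosine is followed at a fixed spacing by a leucine or isoleucine.

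The probes of Cd3d, Tyrobp and Ptprc are shown because they lie in coding sequence and say which part of the transcript was read. In the Cd3d and Tyrobp probes the capitals mark each tyrosine codon that has a leucine codon after it, with 2 codons between, which is one arm of that signalling motif. In the Ptprc probe they mark the stop codon.
Cd3d: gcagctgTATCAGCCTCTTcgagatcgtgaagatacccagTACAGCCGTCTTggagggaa
Tyrobp: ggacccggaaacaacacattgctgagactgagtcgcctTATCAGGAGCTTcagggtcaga
Ptprc: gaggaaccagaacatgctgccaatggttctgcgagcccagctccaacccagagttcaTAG
The Cd3d probe holds 2 such arms and the Tyrobp probe 1. In the mm9 build of the array design the Cd3d probe lies at chr9:44794171-44794402 on the plus strand and the Tyrobp probe at chr7:31200651-31202378 on the plus strand. Their spans of 232 and 1728 bases exceed the probe length of 60 bases, so each matches the genome with a gap and reads across it in the RNA. The Ptprc probe lies at chr1:139961083-139961142 on the minus strand. Cd3g and Cd3e were read at chr9:44777868-44777927 and chr9:44806828-44806887, both on the minus strand, so the CD3 trio sits in one stretch of chromosome 9. Cd207 was read at chr6:83621442-83621501, Lyz2 at chr10:116719175-116719234 and Fcer1g at chr1:173159794-173159853, all on the minus strand. The Cd52 probe lies at chr4:133649505-133649564 on the minus strand and the Laptm5 probe at chr4:130490785-130490844 on the plus strand. No annotation of the mm9 build was used here, so exons and introns are not assigned.

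Each level is a log2 signal from which the array's own 75th percentile was subtracted, so a level of 0 equals that percentile. A level is compared between arrays for one probe and not with the level of another probe, though sums and medians over several probes are given by array. The sorts carried keratinocyte RNA, with Krt14, a keratin of basal keratinocytes, at 7.53 to 9.66 on every array. Cd34, the HFSC sort marker, was at 3.54 to 6.44 on the 12 HFSC arrays and at -6.45, -5.08 and -3.86 on 3 of the IFE arrays. The fourth IFE array, from young hCOL17A1 mice, had a Cd34 level of 0.32. It also correlated with the other IFE arrays at 0.919 to 0.926 over all genes, while those 3 correlated with each other at up to 0.979. The probe of the targeted gene Col17a1 was at 5.97 in aHFSC and 6.75 in tHFSC of Col17a1 cKO mice, against 6.17 and 7.02 in the same sorts of young control mice. Prkci, the aPKCλ gene, was at 3.28 and 3.44 in aHFSC and tHFSC of aPKC cKO mice, against 4.37 and 4.25 in young control mice. Whether these probes lie in the deleted parts is not known from the labels, and the small difference for Col17a1 does not check that label. The aged hCOL17A1 aHFSC and tHFSC arrays had 59.3% and 68.9% of all probes well above background, against 73.9% to 79.9% on the other 14. The 8 young HFSC arrays share slide 1, and the 4 aged HFSC arrays share slide 2 with the 4 IFE arrays, so age in HFSC cannot be told apart from the slide.

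RNA of immune cell marker genes was detected in every sort. Of the member values with a background flag, 52 of 60 were well above background in aHFSC (86.7%), 51 of 59 in tHFSC (86.4%) and 34 of 40 in IFE (85%). Over all probes on the arrays the shares were 74.5% in aHFSC, 76% in tHFSC and 74.4% in IFE, so the members' detection is not a result particular to them. By age, 26 of 40 values were well above background in aged HFSC (65%) and 77 of 79 in young HFSC (97.5%), while IFE had 16 of 20 in aged mice (80%) and 18 of 20 in young mice (90%). Over all probes these shares were 71.3% in aged HFSC, 77.2% in young HFSC, 74.4% in aged IFE and 74.5% in young IFE. The lowest numbers were 4 of 10 members in aged hCOL17A1 aHFSC and 5 of 10 in aged hCOL17A1 tHFSC, the same arrays on which fewer probes of all kinds were well above background, and the part of this in the result was not tested. In sorted bulk samples, fewer cells of a type and less RNA per cell cannot be told apart.

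Summed over the 10 members on the linear scale, the signal was 8.12 times the 75th percentile in young hCOL17A1 aHFSC, 6.13 times in young hCOL17A1 IFE and 5.98 times in young Col17a1 cKO tHFSC. Young hCOL17A1 tHFSC followed at 4.79 and young WT IFE at 4.54. The sum was 1.26 in aged hCOL17A1 aHFSC, the lowest of the 16 arrays, against 2.49 in young control aHFSC and 2.61 in young control tHFSC. Such a sum weighs the brightest probes most and is no measure of the members as a whole. The members' median level was -0.67 in young hCOL17A1 aHFSC, -1.16 in young hCOL17A1 IFE and -1.25 in Col17a1 cKO tHFSC, the highest arrays. It was lowest in aged hCOL17A1 aHFSC, at -4.46. Young hCOL17A1 aHFSC had the highest level of any array for 6 of the 10 members. Young Col17a1 cKO tHFSC was among the 3 highest arrays for 7 members, yet it was the lowest of all arrays for Lyz2 and Ptprc. The share of all genes for which an array was highest, or among the 3 highest, was not computed. These counts are therefore not shown to be particular to the members. The high values were therefore spread over an aHFSC, a tHFSC and an IFE array, all from young mice.

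**Figure D1:**
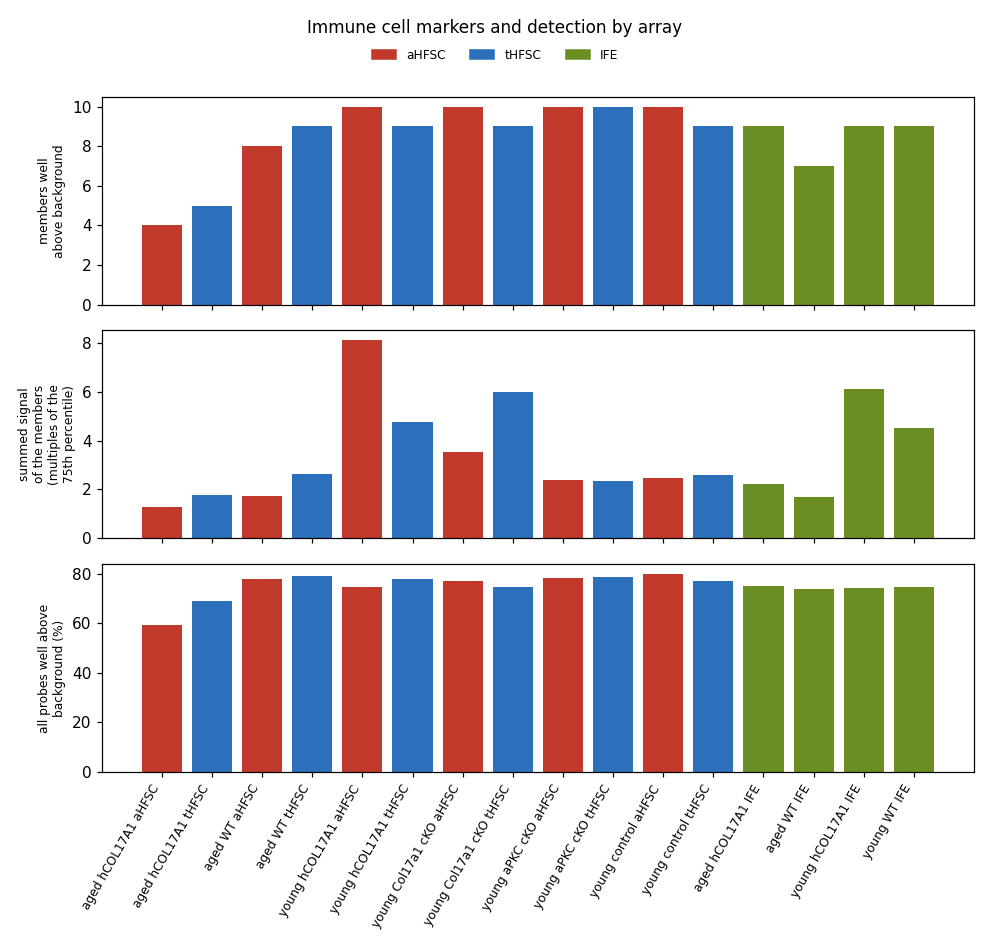
Bars give, for each of the 16 arrays (x axis), the number of the 10 members well above background, the summed signal of the members in multiples of the array's 75th percentile, and the percentage of all probes well above background. The summed signal, which weighs the brightest probes most, is highest in young hCOL17A1 aHFSC at 8.12. It is lowest in aged hCOL17A1 aHFSC at 1.26, which also has the lowest percentage of probes above background at 59.3%.

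Among the T cell receptor genes, Cd3g varied most between arrays. It encodes the CD3γ chain, and its level spanned 7.87 log2 units. In aHFSC its level was -6.35 in aged hCOL17A1, -5.51 in aged WT, -2.24 in young hCOL17A1, -2.51 in Col17a1 cKO, -3.01 in aPKC cKO and -4.0 in young control mice. In tHFSC it was -4.44 in aged hCOL17A1, -5.48 in aged WT, -0.30 in young hCOL17A1, -0.03 in Col17a1 cKO, -2.89 in aPKC cKO and -1.64 in young control mice. In IFE it was -2.78 in aged hCOL17A1, -6.79 in aged WT, 1.08 in young hCOL17A1 and -1.81 in young WT mice. All 4 aged HFSC arrays and the aged WT IFE array were not well above background for Cd3g, and every young array was. In HFSC this split by age is also the split by slide. Over all probes, 71.3% of values were well above background in aged HFSC and 77.2% in young HFSC. The share of all genes with such a split was not computed, so it is not shown to be particular to Cd3g. Within each of the 6 kinds of mice aHFSC lay below tHFSC for Cd3g, as it did for 4.87% of all genes.

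Cd3d encodes the CD3δ chain, and its levels showed the same high arrays. Its level was -0.02 in young hCOL17A1 IFE, -1.45 in Col17a1 cKO tHFSC and -1.55 in young hCOL17A1 tHFSC, the 3 highest of 16. Those 3 arrays were also the 3 highest for Cd3g. The lowest were aged hCOL17A1 tHFSC at -4.53 and aged hCOL17A1 aHFSC at -4.45, neither of them well above background. Between these ends, HFSC of the young control mice had -3.18 in aHFSC and -3.15 in tHFSC. The aged WT mice had -3.54 in aHFSC and -1.74 in tHFSC, so the range within one kind of aged mouse exceeded that between the young control sorts.

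Cd3e, the CD3ε chain, was well above background on all 16 arrays. Its level ranged over 2.44 log2 units, with a highest value of 0.99 in young hCOL17A1 aHFSC and a lowest of -1.44 in aged hCOL17A1 aHFSC. Young WT IFE followed the highest at 0.71, Col17a1 cKO aHFSC at 0.51 and Col17a1 cKO tHFSC at 0.46. The young hCOL17A1 IFE array, the highest for Cd3d and Cd3g, stood at -0.21 for Cd3e, near its median of -0.30. Over the 16 arrays the Pearson correlation was 0.77 between Cd3d and Cd3g, 0.66 between Cd3e and Cd3g and 0.64 between Cd3d and Cd3e, as a description of arrays that share slides and mice.

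**Figure D2:**
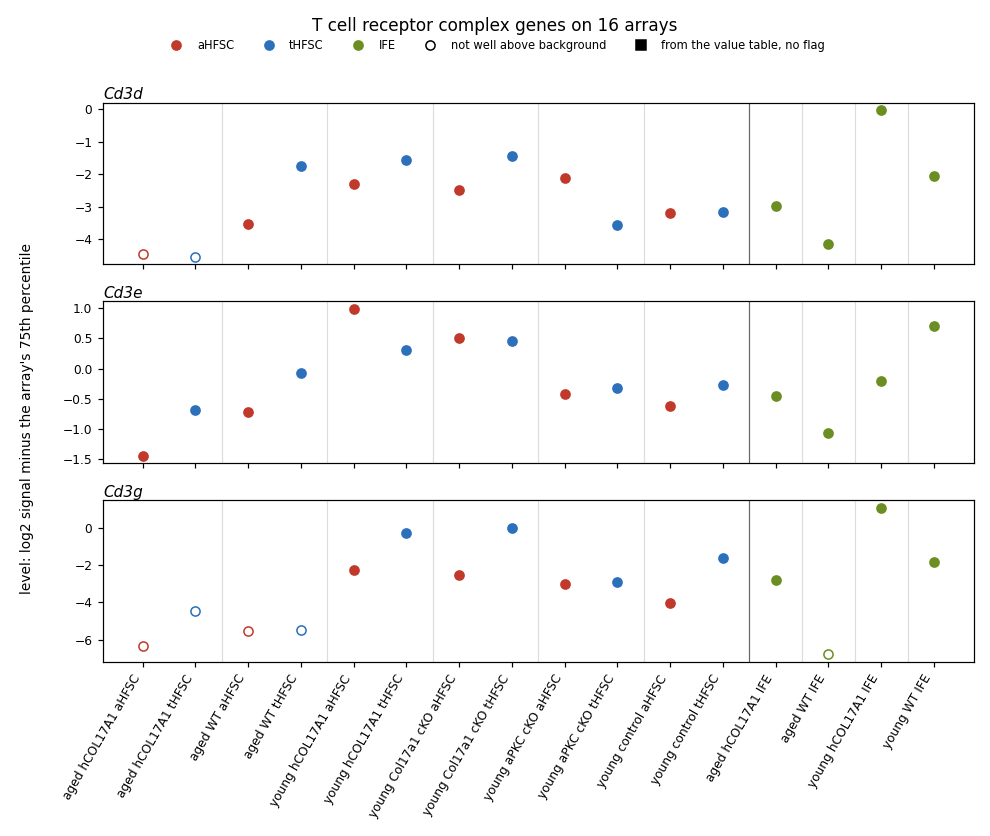
Points give the level of Cd3d, Cd3e and Cd3g (y axis, log2 signal minus the array's 75th percentile) on each of the 16 arrays (x axis), and open points were not well above background. Cd3g is open on all 4 aged HFSC arrays and on aged WT IFE, and lies at 1.08 in young hCOL17A1 IFE.

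Cd207 encodes langerin, the lectin that defines Langerhans cells, and it stood out on 3 arrays. Its level was -0.87 in young hCOL17A1 aHFSC, -0.95 in young hCOL17A1 IFE and -2.36 in Col17a1 cKO tHFSC. The next array, young WT IFE, was at -2.98, and the other 12 lay between -4.31 and -3.46. The tHFSC array of the young hCOL17A1 mice was among these 12, at -3.61. Cd207 was not well above background in aged hCOL17A1 tHFSC, aged hCOL17A1 IFE and aged WT IFE.

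Tyrobp encodes DAP12, an adapter of myeloid and natural killer cell receptors, and it ranged over 7.26 log2 units. In aHFSC its level was -6.29 in aged hCOL17A1, -3.79 in aged WT, 0.97 in young hCOL17A1, -0.73 in Col17a1 cKO, -3.01 in aPKC cKO and -1.05 in young control mice. In tHFSC it was -4.26 in aged hCOL17A1, -3.56 in aged WT, -0.91 in young hCOL17A1, 0.08 in Col17a1 cKO, -3.52 in aPKC cKO and -3.61 in young control mice. In IFE it was -3.36 in aged hCOL17A1, -2.22 in aged WT, -3.15 in young hCOL17A1 and -0.31 in young WT mice. The array with the highest Cd3g, young hCOL17A1 IFE, thus stood near the Tyrobp median of -3.08. Both aged hCOL17A1 HFSC arrays were not well above background.

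Fcer1g encodes the common γ chain of Fc receptors. For it, 5 arrays stood above the rest. Young hCOL17A1 tHFSC was at 0.14, Col17a1 cKO tHFSC at -0.06, young hCOL17A1 IFE at -0.34, young hCOL17A1 aHFSC at -0.47 and young WT IFE at -0.96. The other 11 arrays lay between -2.26 and -1.61. The young control tHFSC value of Fcer1g, -1.95, came from the deposited value table and has no background flag. Lyz2, the lysozyme of macrophages and other myeloid cells, behaved otherwise: its highest level was -2.90 in young hCOL17A1 aHFSC, its median -3.54 and its lowest -5.41 in Col17a1 cKO tHFSC. That array was high for Cd207, Tyrobp and Fcer1g but not well above background for Lyz2. The probe was not checked against the near-identical paralog Lyz1, so the 2 genes' RNA may not be separated.

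**Figure D3:**
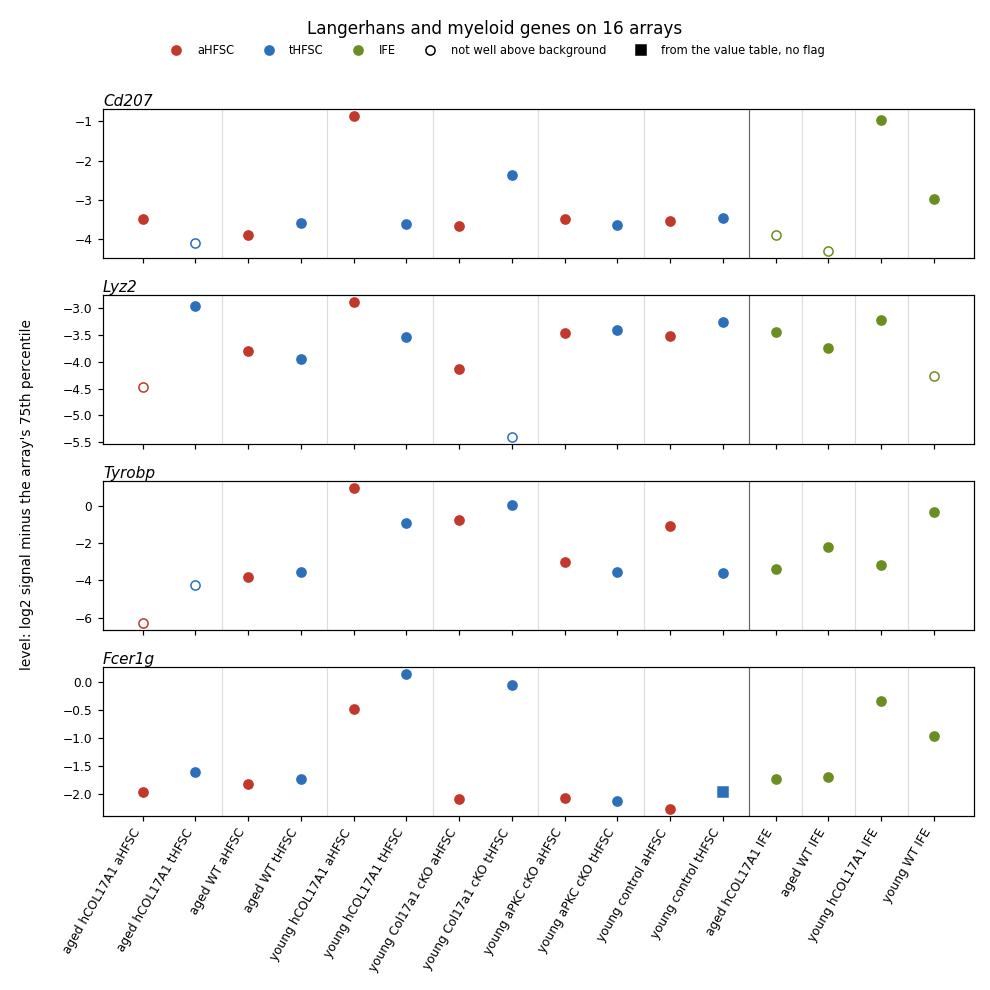
Points give the level of Cd207, Lyz2, Tyrobp and Fcer1g (y axis, log2 signal minus the array's 75th percentile) on the 16 arrays (x axis), with open points for values not well above background and a square for the value without a flag. Young hCOL17A1 aHFSC is the highest array for Cd207, Lyz2 and Tyrobp, at -0.87, -2.90 and 0.97.

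The 3 leukocyte genes differed in how far they varied. Cd52, a small surface glycoprotein of lymphocytes and myeloid cells, was at 0.12 in young hCOL17A1 aHFSC, while the other 15 arrays lay between -4.68 and -1.93. Laptm5, a lysosomal membrane protein of blood cells, was at -0.33 in young hCOL17A1 aHFSC, -1.05 in Col17a1 cKO tHFSC and -1.44 in Col17a1 cKO aHFSC. Its lowest levels were -6.79 in aged WT IFE and -6.38 in aged hCOL17A1 aHFSC, and 6 of 16 arrays were not well above background. The second Laptm5 probe was dimmer, yet it too had its highest levels in Col17a1 cKO tHFSC, at -1.93, and young hCOL17A1 aHFSC, at -2.10. In Col17a1 cKO aHFSC the probes disagreed, since the second one was at -5.59 and not well above background. Ptprc, the receptor phosphatase CD45 of all leukocytes, was well above background on every array and ranged over only 0.88 log2 units. It stood at -0.68 in aPKC cKO tHFSC, the highest array, and at -1.56 in Col17a1 cKO tHFSC, the lowest, so it did not follow the other members.

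**Figure D4:**
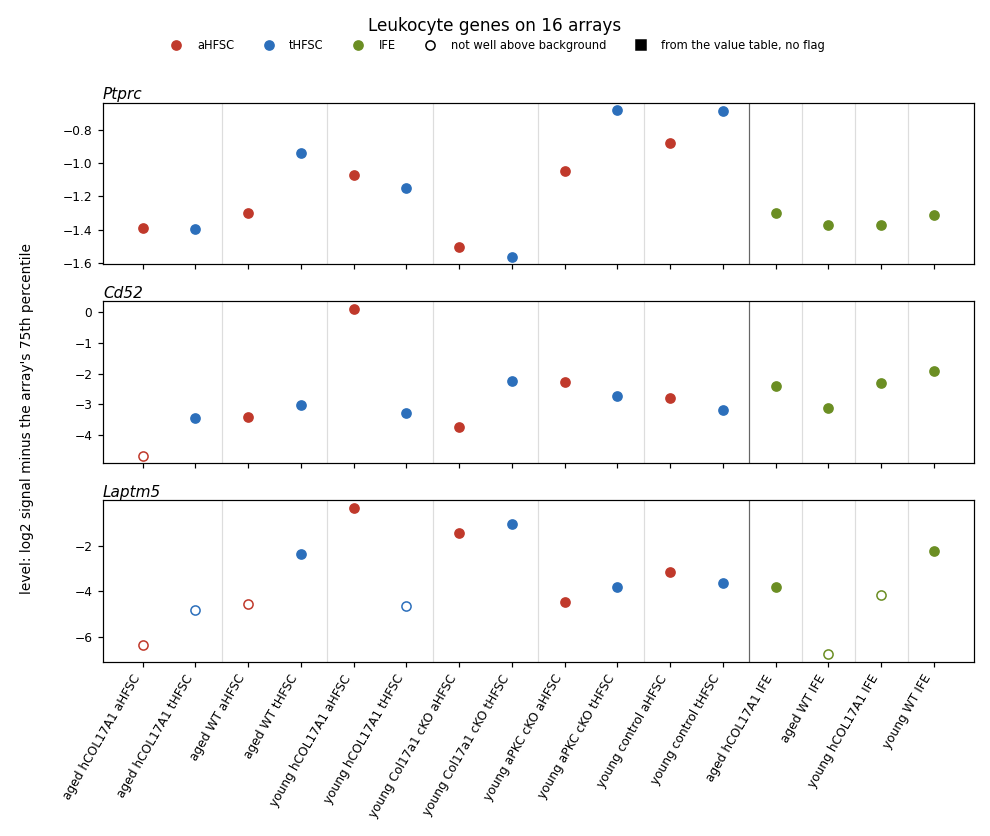
Points give the level of Ptprc, Cd52 and Laptm5 (y axis, log2 signal minus the array's 75th percentile) on the 16 arrays (x axis), with open points for values not well above background. Ptprc stays between -1.56 and -0.68, while Cd52 and Laptm5 are highest in young hCOL17A1 aHFSC.

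The sorts were compared first, in a limma fit of all 16 arrays with Benjamini-Hochberg adjustment over 31584 genes and a threshold of 0.05. With 1 array per group, its errors come from the scatter of arrays around an additive model, and not from variation between animals. For tHFSC against IFE, 0 of 10 members passed, where 6.39% of all genes did, and 0 had an unadjusted p under 0.05, where 20.7% of all genes did. The members' fitted log2 differences ran from -0.71 for Tyrobp to 0.51 for Laptm5, with a median of -0.22 beside -0.05 over all genes. For aHFSC against IFE, 0 of 10 passed, where 4.32% of all genes did, and 1 had an unadjusted p under 0.05, where 17.7% of all genes did. That member was Cd3g, whose fitted difference was -1.91 ± 0.46 (SE, adjusted p = 0.0562 in limma). By age and transgene, the aHFSC array lay below the IFE array for Cd3g in aged hCOL17A1, young hCOL17A1 and young mice without the transgene. In that last pair the HFSC mice had received RU486 and the IFE mice have none recorded, and the arrays lie on different slides. In aged WT mice aHFSC was higher, with both values not well above background. Without the aged WT aHFSC array the adjusted p of Cd3g was 0.0487 and its difference -2.27.

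For aHFSC against tHFSC, 0 of 10 members passed, where 0.532% of all genes did, and again Cd3g alone had an unadjusted p under 0.05, where 12.6% of all genes did. Its fitted difference was -1.48 ± 0.39 (SE, adjusted p = 0.164 in limma), with aHFSC lower in 6 of 6 kinds of mice. In both aged kinds neither sort was well above background. The members' median was -0.06 beside -0.09 over all genes. Pair by pair the direction varied: 7 members were higher in aHFSC of young hCOL17A1 mice, with a median difference of 0.67, and 3 were higher in aHFSC of Col17a1 cKO mice, with a median of -0.92. On slide 2 alone, with aged mice only, the members' median was -0.76.

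Loss of Col17a1, the collagen XVII of hemidesmosomes, was compared with control HFSC over both sorts. 0 of 10 members passed in limma, where 0% of all genes did, and 3 had an unadjusted p under 0.05, where 4.06% of all genes did. A positive fitted difference was found for 7 members and for 41.1% of all genes. The members' median was 0.98 beside -0.09 over all genes. Cd3g was at 1.55 ± 0.68 (SE), while Lyz2 was at -1.38 ± 0.60 and Ptprc at -0.75 ± 0.28, all with an adjusted p of 1 to within rounding. Without the Col17a1 cKO tHFSC array, Cd3g was at 0.95 and Lyz2 at -0.64. The shift lay mostly in tHFSC, where the median of the members' differences was 1.36 and 8 of 10 were higher, against 0.24 and 6 of 10 in aHFSC. Ly6a, which encodes the Sca1 protein used to exclude cells from the HFSC sorts, was at 1.02 in Col17a1 cKO tHFSC and at -1.67 in young control tHFSC. It was at -4.85 to -0.05 on the other HFSC arrays and at 3.28 to 4.23 in IFE, and its part in the members' levels was not tested.

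Loss of aPKC, a polarity kinase, was compared with control HFSC in the same way. 0 of 10 members passed in limma, where 0% of all genes did, and 0 had an unadjusted p under 0.05, where 3.45% of all genes did. The members' differences ran from -0.94 for Tyrobp to 0.48 for Cd52, with a median of -0.06 beside 0.03 over all genes.

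The COL17A1 transgene was compared in young and in aged HFSC. In young mice, hCOL17A1 against control, 0 of 10 members passed in limma, where 0% of all genes did, and 4 had an unadjusted p under 0.05, where 6.82% of all genes did. Fitted differences were positive for 9 of 10 members and for 50.8% of all genes, with a median of 1.25 beside 0.01 over all genes. Tyrobp was at 2.36 ± 0.99 (SE), Fcer1g at 1.94 ± 0.49, Cd3g at 1.55 ± 0.68 and Cd3e at 1.097 ± 0.46, with adjusted p-values from 0.454 to 0.731 in limma. Tyrobp was at 1.01 without the young control tHFSC array and at 1.42 without the young hCOL17A1 aHFSC array, and Cd3e at 0.57 without young hCOL17A1 aHFSC, while Fcer1g stayed between 1.79 and 2.09 whichever array was left out. For Tyrobp, Fcer1g, Cd3d and Cd3e both hCOL17A1 arrays lay above both control arrays, as they did for 21.3% of all genes. Ptprc lay below on both, as did 17.3% of all genes. Cd207, Cd52 and Laptm5 were different in that only aHFSC was high, by 2.67, 2.91 and 2.85 log2 units over control aHFSC. In tHFSC their differences were -0.15, -0.11 and -1.02. The second, dimmer Laptm5 probe was at -2.10 in young hCOL17A1 aHFSC and at -2.94 in young control aHFSC. Its difference there was thus smaller than the 2.85 of the brighter probe. In tHFSC it was at -4.12 in young hCOL17A1 mice and at -4.07 in young control mice, the latter value without a background flag. Without the young hCOL17A1 aHFSC array the members' median was 0.19. Of 5 listed erythroid genes, markers of red blood cells, all 4 tested had positive fitted differences. Their median was 1.04, with 0 passing in limma (1 at an unadjusted p under 0.05). Hba-a1, an α-globin gene, was at 3.92 in aHFSC and 4.38 in tHFSC of young hCOL17A1 mice, against 2.48 and 2.29 in young control mice. In aHFSC, Alas2 and Slc4a1 of the same list went the other way. Alas2 was at -3.25 in aHFSC and 0.84 in tHFSC of young hCOL17A1 mice, against -1.68 and -3.38 in young control mice. Slc4a1 was at -1.12 and -1.02, against -1.04 and -1.13. The part of red cell RNA in the members' levels was not tested.

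In aged mice, hCOL17A1 against WT, most members had the opposite sign, which was also the more common one over all genes. 0 of 10 passed in limma, where 0% of all genes did, and 1 had an unadjusted p under 0.05, where 12% of all genes did. Of the 10 fitted differences 8 were negative and 2 positive, where 36.5% of all genes were positive. Their median was -0.47 beside -0.23 over all genes. Cd3d was at -1.85 ± 0.67 (SE, adjusted p = 0.343 in limma), and at -0.98 without the aged WT tHFSC array. By the signals as measured, Cd3d was 3.61-fold lower and Tyrobp 2.99-fold lower in aged hCOL17A1 HFSC. Neither hCOL17A1 array was well above background for either gene. Without the aged WT tHFSC array the ratio of Cd3d was 1.93-fold. Without the aged hCOL17A1 aHFSC array that of Tyrobp was 1.49-fold. These ratios set the WT mean against the lowest signal that counted as well above background on each hCOL17A1 array. The probe's own signal was used where higher. For Cd3d it was higher on both arrays, so its ratio restates the fitted difference and is no lower bound. Over the processing alternatives that difference ranged from -2.11 to -0.46. The difference between the hCOL17A1 comparisons, aged minus young, was tested too, after the values had been seen. Among these mice RU486 and plucking are recorded for the young controls only, and the young and aged arrays lie on different slides. This test therefore does not isolate the transgene. 0 of 10 members passed in limma, where 0% of all genes did, and 4 had an unadjusted p under 0.05, where 10.6% of all genes did. Tyrobp was at -3.96 ± 1.41 (SE) and Cd3d at -3.09 ± 0.95, with adjusted p-values of 0.412 and 0.372. The members' median was -1.86 beside -0.24 over all genes, and the lower detection on the aged hCOL17A1 arrays falls in the same direction, its part not tested. The 4 erythroid genes also had negative fitted differences in aged hCOL17A1 against WT HFSC, with a median of -1.04, and their aged minus young median was -2.19, with 0 passing in limma in each (2 at an unadjusted p under 0.05 in each). Hba-a1 was at -1.26 in aHFSC and -1.30 in tHFSC of aged hCOL17A1 mice, against -0.47 and 1.26 in aged WT mice. Alas2 was higher in aged hCOL17A1 aHFSC, at -1.06 against -1.77 in aged WT, and lower in tHFSC, at -3.52 against -2.53.

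Age was compared in HFSC and in IFE. For aged WT against young control HFSC, 0 of 10 members passed in limma, where 0% of all genes did, and 1 had an unadjusted p under 0.05, where 5.03% of all genes did. That member, Cd3g, had a fitted difference of -2.67 ± 0.68 (SE, adjusted p = 0.92 in limma), which is 6.38-fold lower in aged WT HFSC. Neither aged WT array was well above background for it. Without the young control tHFSC array the ratio was 2.81-fold, and without the aged WT tHFSC array the fitted difference was -1.81. With normexp background correction it was -0.55. RU486, the slide and, in aHFSC, the recorded plucking differ along with age here, and they cannot be told apart from it. The members' median was -0.25 beside 0.00 over all genes. With slide as a term and age shared with IFE, the median was -1.06. In that fit the age term comes from the IFE arrays alone, because age and slide coincide in HFSC. It therefore gives no slide-adjusted age difference for HFSC.

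For aged against young IFE, all on slide 2, 0 of 10 members passed in limma, where 0% of all genes did, and 3 had an unadjusted p under 0.05, where 6.32% of all genes did. The sign was negative for 8 of 10 members, with a median of -1.06 beside -0.11 over all genes. It was positive for 2 members and for 42.7% of all genes. Cd3g had a fitted difference of -4.42 ± 0.68 (SE, adjusted p = 0.686 in limma), with aged WT IFE not well above background, and one of -1.79 with normexp background correction. Cd3d was at -2.52 ± 0.67 and Cd207 at -2.14 ± 0.82, both with an adjusted p of 0.749. Both aged arrays lay below both young ones for Cd3d, Cd3e, Cd3g, Cd207, Fcer1g and Cd52, as they did for 21.5% of all genes. Cd207 was 4.40-fold lower in aged IFE, and 2.18-fold lower without the young hCOL17A1 IFE array. Neither aged array was well above background for it. Over the processing alternatives its fitted difference ranged from -2.25 to -0.815. Without aged WT IFE, or without young WT IFE, the members' median was -0.23.

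For hCOL17A1 against WT IFE, 0 of 10 members passed in limma, where 0% of all genes did, and 2 had an unadjusted p under 0.05, where 5.45% of all genes did. Cd3g was at 3.45 ± 0.68 (SE) and Cd3d at 1.59 ± 0.67, both with an adjusted p of 0.845. The young hCOL17A1 IFE array that gave the highest Cd3d and Cd3g is also the one with the Cd34 level of 0.32, and the part of this in the result was not tested. Tyrobp went the other way, at -1.98 ± 0.99. The members' median was 0.40 beside 0.16 over all genes.

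**Figure D5:**
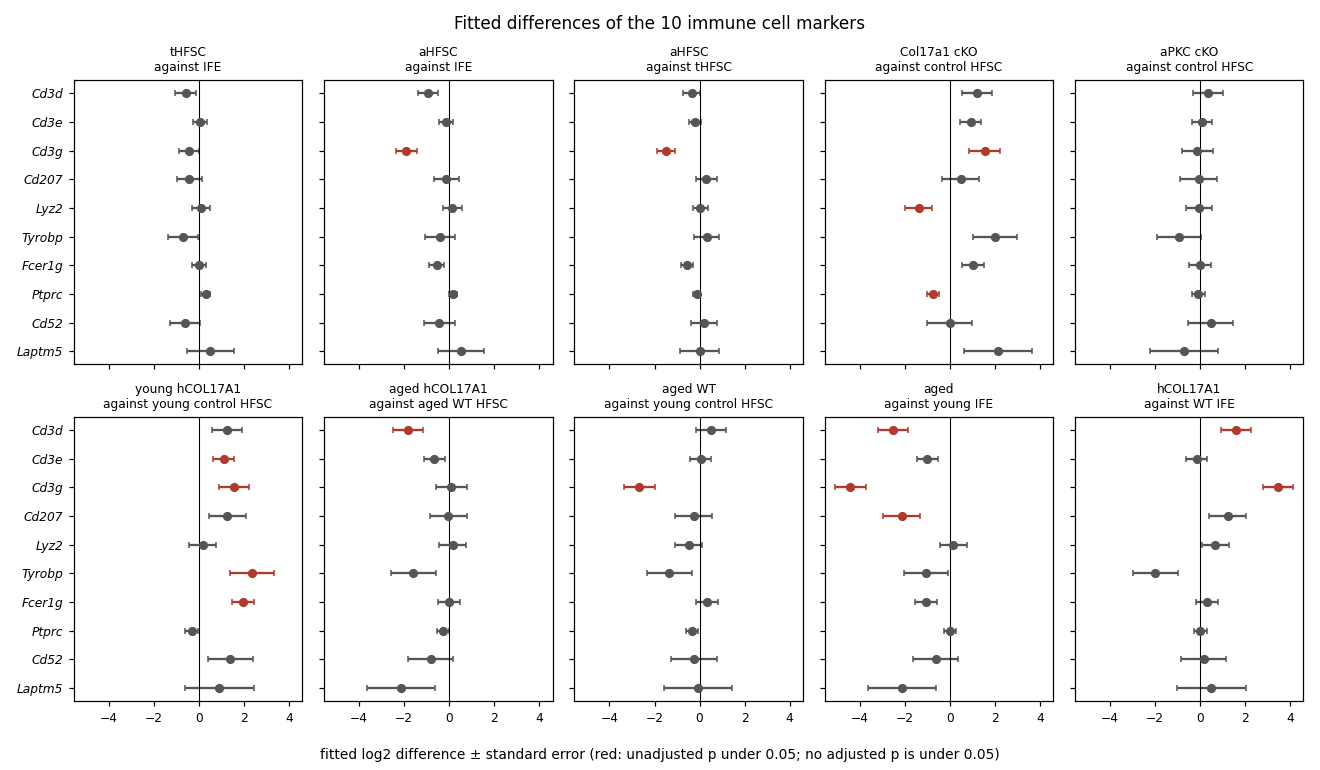
Each panel gives, for 1 of 10 comparisons, the fitted log2 difference of the 10 members (x axis) with its standard error, in red where the unadjusted p was under 0.05. Most members lie right of 0 for young hCOL17A1 against young control HFSC, with a median of 1.25, and left of 0 for aged against young IFE, with a median of -1.06.

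Other genes of the same cell types were read from wider lists, and the arrays that led them differed by list and by measure. The 18 tested T cell genes beyond the members had summed signals of 8.11 in aged hCOL17A1 aHFSC, the lowest, to 16.3 in young hCOL17A1 aHFSC, the highest, and 12 to 18 of them were well above background. Their highest median level, -1.40, was in young WT IFE. The 19 Langerhans and myeloid genes had their highest sum, 546.1, in young hCOL17A1 IFE and their lowest, 276.1, in young control aHFSC, while their highest median level, -2.22, was in young hCOL17A1 aHFSC. The 21 leukocyte genes had their highest sum, 233.1, in aged hCOL17A1 aHFSC and their lowest, 106.9, in aged WT tHFSC. Their highest median level, -1.63, was in young hCOL17A1 aHFSC. Such sums weigh the brightest probe of a list most. Itgam, the brightest of the myeloid list, was highest in young hCOL17A1 IFE at 9.05 and lowest in young control aHFSC at 7.99. Cd44, the brightest of the leukocyte list, was highest in aged hCOL17A1 aHFSC at 7.76. The sums are thus no measure of the lists as a whole. In young hCOL17A1 against control HFSC, 13 of 18 T cell genes, 13 of 19 myeloid genes and 18 of 21 leukocyte genes had positive fitted differences. Over all genes 50.8% were positive. Of the list genes 0 passed in limma. At an unadjusted p under 0.05 there were 3, 0 and 3. In tHFSC against IFE, 0 of 18, 0 of 19 and 1 of 21 of these genes passed as lower. In aHFSC against IFE, 1 of 18, 0 of 19 and 1 of 21 did, beside 4.32% of all genes in either direction. The T cell gene was Xcl1, a lymphocyte chemokine chosen after its values were seen, with a fitted difference of -2.26 (log2, adjusted p = 0.0257 in limma). It was well above background on 6 of 16 arrays, with its highest level, 0.45, in young hCOL17A1 IFE.

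MHC class II genes, whose products present antigen to T cells, were read as a list of 7. The list had its highest median levels in young hCOL17A1 aHFSC, at 1.02, and Col17a1 cKO tHFSC, at 0.75. Its brightest gene, Ciita, did not share this pattern. Ciita ranged only from 2.50 to 3.15, was highest in young hCOL17A1 IFE, and was at 2.58 in Col17a1 cKO tHFSC against 2.51 in young control tHFSC. H2-Ab1, a class II β chain, was at 3.48 in young hCOL17A1 aHFSC and 2.65 in Col17a1 cKO tHFSC, with 0.31 in young control aHFSC and 0.20 in young control tHFSC. It was also at 2.44 in young hCOL17A1 tHFSC, where Cd207 was at -3.61. Cd74, the invariant chain, was at 2.53 and 2.27 on the same 2 arrays, with 0.23 in young control aHFSC and -2.10 in young control tHFSC. It was at 1.80 in aged hCOL17A1 tHFSC, where Cd207 was not well above background and H2-Ab1 had its lowest level, -3.23. The list's median fitted difference was 2.44 in young hCOL17A1 against control HFSC, with 6 of 7 positive, 0 passing in limma and 4 at an unadjusted p under 0.05. Over all genes 50.8% were positive in that comparison.

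Genes whose levels ran most like each member over the 16 arrays were taken from 17882 candidates. Cd3e and Laptm5 had each other among their 3 nearest, with a Pearson r of 0.87, and Tyrobp was also among the 3 nearest to Cd3e, at 0.83. The nearest gene to Cd52 was Fyb, an adapter of T cells and myeloid cells, at 0.91. Cd207 was nearest to Lrmp, at 0.90, Cd3g to Spns2, at 0.92, and Cd3d to Elovl1, at 0.89. Tyrobp was nearest to Klk8, an epidermal protease, at 0.86. Among the 45 pairs of members, 34 correlations were above 0 and 19 above 0.5, with a median of 0.48. The same counts for other genes were not computed. Single correlations could depend on few arrays. Without the 2 arrays farthest from the Cd3e median, that of Cd3e with Cd52 fell from 0.66 to 0.24. Without the 2 farthest from the Cd3d median, that of Cd3d with Cd3e rose from 0.64 to 0.80. Ptprc and Fcer1g had the lowest, at -0.35.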

How the data were processed

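Gene expression was measured on 16 one-colour Agilent arrays, with amplified cDNA labelled with Cy3, per the labels' protocols. The deposited scanner files hold intensity values on a linear scale, made with Feature Extraction 11.5.1.1 per the file headers. A value table deposited by the authors holds log2 values, which match the scanner's processed signal after log2 and subtraction of each array's 75th percentile, with 99% of probes within 0.005. The young control tHFSC file holds 46417 of 55681 probes, and the other 9264 were filled from that table, without background flags.

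Control and outlier spots were left out, spots of a probe were averaged, and probes well above background on at least 2 arrays were kept. Levels were fitted with limma 3.58.1 in R 4.3.3 (lmFit, eBayes with a trend, two-sided, Benjamini-Hochberg over 31584 genes). The fit had a term for each of 6 HFSC kinds of mice, a common aHFSC shift, and an intercept, age and transgene term for IFE, leaving 6 residual degrees of freedom. The fit was also run on simulated data, and no result given here rests on that run. The labels do not say whether samples came from separate animals, and the p-values measure scatter around the additive fit. The number of arrays limits the precision. Members and lists were chosen with earlier results of these data known. Named genes are the members, at most the 3 brightest other genes of a list, and the 3 genes most correlated with a member among those above background on at least 8 arrays. Xcl1 and the test of the hCOL17A1 comparisons between ages were added after values were seen. Alternatives changed the background correction, normalization, filter, probe choice, variance trend, slide, state-by-age term and arrays used. One label pair is spelled without its meaning, so aHFSC and tHFSC are used as given. A result on 1 other leukocyte gene is not reported here.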

Additional observations from a re-analysis of the deposited data

How the results depend on the processing

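Under the alternatives run, 0 of 10 members passed in limma in every comparison, except that 1 passed for aHFSC against IFE without the aged WT aHFSC array, and leaving out single arrays gave 0 to 1 there. That member was Cd3g, at -2.27 with an adjusted p of 0.0487. The 16 fitted member differences with an unadjusted p under 0.05 kept their sign in 180 of 180 alternatives and in 76 of 76 fits without 1 array. Their smallest adjusted p was 0.0487. Sizes were less stable: Cd3g in aged against young IFE ranged from -4.98 to -1.79 and Lyz2 in Col17a1 cKO against control HFSC from -1.38 to -0.21. The number of members for which aged hCOL17A1 tHFSC was among the 3 lowest arrays was 6, against 0 with normexp background correction and 2 with quantile normalization, and the cause was not tested. The share of all genes was not computed for this count. In 174 of 179 alternatives, left-out arrays included, the members' median moved by less than the median standard error of the single members' differences. No standard error of the members' median itself was computed. The term for each kind of mouse already pairs aHFSC with tHFSC. No paired analysis by replicate number was possible because each group has 1 array and the labels give no replicate numbers. Dim members are limited by background, as 22 of 159 flagged values were not well above it.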
